A study of Mus musculus with 2 samples.

Results

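Control islets were 2 of the 4 samples of a study of RbΔK7, a retinoblastoma protein that resists phosphorylation. They were defined by their labels, as the Cy3 channel of 2 two-colour Agilent arrays, and chosen with earlier results of these data known. The Cy5 channel held islets of RbΔK7 knock-in mice and was not used here. The control mice are called control in the labels, and their strain, age, sex and the number of mice behind each sample are not given in the sources used here. Islets were released with collagenase injected through the bile duct, picked by hand under a microscope and frozen, and 15 ng of total RNA per sample was amplified to labelled cRNA, per the labels. The series design calls the samples independently grown and harvested, with 1 control sample on each array, and both arrays lay on 1 slide, per the file headers. The question was which transcripts were brightest in control islets and how closely the 2 control samples matched.

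Pancreatic islets are clusters of endocrine cells set in the exocrine pancreas. Beta cells make insulin and amylin, alpha cells glucagon, delta cells somatostatin and PP cells pancreatic polypeptide, and all of them store hormones in granules with chromogranins and process them with prohormone convertases. The acinar cells around the islets make digestive enzymes and their mRNAs are among the most abundant of any tissue. Reg genes encode secreted lectins that acinar cells switch on when the pancreas is injured or inflamed.

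The unit was net signal, the mean intensity of a spot minus the median of its local background. Each array held 59305 gene spots of 55681 probes, each probe 60 letters long, under 34841 names (GeneNames of the array's design). The brightest probe stood for its GeneName, and a GeneName counted as detected when at least 50% of that probe's spots were well above background. Saturation was not reached by any gene spot. With 2 arrays, precision is limited by their number. A probe's brightness depends on its sequence as well as on its transcript, so a rank is a place in an order of probes and is not a count of molecules. A difference between the samples is given on the log2 scale as control replicate 2 minus control replicate 1, after each sample was divided by its median net signal over the GeneNames detected in both (142 and 180.5). With 1 group of 2 samples there was no contrast to test, so no p-value was computed.

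Some probe sequences bear on how the order of brightness is read, and they are shown 5′ to 3′ as deposited. The Ins1 probe stands for the brightest transcript of control replicate 1 and lies at chr19:52339385-52339444 (mm9, plus strand). It shares no run longer than 7 letters with the Ins2 probe.
Ins1: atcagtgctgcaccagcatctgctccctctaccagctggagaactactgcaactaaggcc

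The amylase probes show how alike probes of a gene family can be. Amy2a5 (chr3:113084781-113084840, minus strand) was the brightest in control replicate 2, and it shares a run of 23 letters, in capitals, with the probe of Amy1 (chr3:113258901-113258960, minus strand).
Amy2a5: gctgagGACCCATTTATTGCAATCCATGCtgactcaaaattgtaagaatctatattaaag
Amy1: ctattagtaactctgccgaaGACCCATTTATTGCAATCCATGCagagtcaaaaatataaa

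The last sets show a trait shared by probes of several GeneNames that stood among the brightest. These probes hold a 12-letter run taken here as part of the mouse B1 or B2 short interspersed repeats. Those families of sequences occur at very many places in the genome and in many transcripts. The runs were not checked against a repeat annotation. The 30 letters around that run are printed, with the run in capitals, first for B1 (Elk1 at chrX:20510521-20510580 minus strand, Glrx2 at chr1:145596708-145596767 plus strand, Ndor1 at chr2:25100377-25100436 minus strand) and then for B2 (Synrg at chr11:83855517-83855576 plus strand, Pbld1 at chr10:62540215-62540274 plus strand).
Elk1: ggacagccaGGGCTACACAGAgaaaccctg
Glrx2: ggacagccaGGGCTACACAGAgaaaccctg
Ndor1: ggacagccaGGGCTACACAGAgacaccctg
Synrg: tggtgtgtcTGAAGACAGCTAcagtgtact
Pbld1: tggagtgtcTGAAGACAGCTAcagtgtaat

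Detected GeneNames numbered 15535 (44.6%) in control replicate 1 and 15960 (45.8%) in control replicate 2. Of these, 14840 were detected in both samples, 695 in replicate 1 alone and 1120 in replicate 2 alone. The 100 brightest GeneNames held 33.2% of the summed net signal in replicate 1 and 34.1% in replicate 2, and the 1000 brightest held 70.7% and 70.2%. A small part of the GeneNames thus carried most of the signal in either sample.

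The brightest probes of control islets were those of digestive enzymes and of insulin. Of the 30 GeneNames of lowest mean rank, 14 were on a list of acinar enzymes and secretory proteins and 2 were islet hormones. Ctrb1, which encodes chymotrypsinogen B, had a net signal of 113968 in replicate 1 and 216976 in replicate 2 (ranks 3 and 2) and the lowest mean rank of all. Clps, the pancreatic colipase, had 104966 and 179976 (ranks 4 and 5). Amy2a5, a pancreatic amylase, had 85074 and 219977 (ranks 9 and 1), and the other probe of that GeneName was nearly as bright (65966 and 147970). The enzyme genes were thus at the top of both samples and all of these were brighter in replicate 2.

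**Figure D1:**
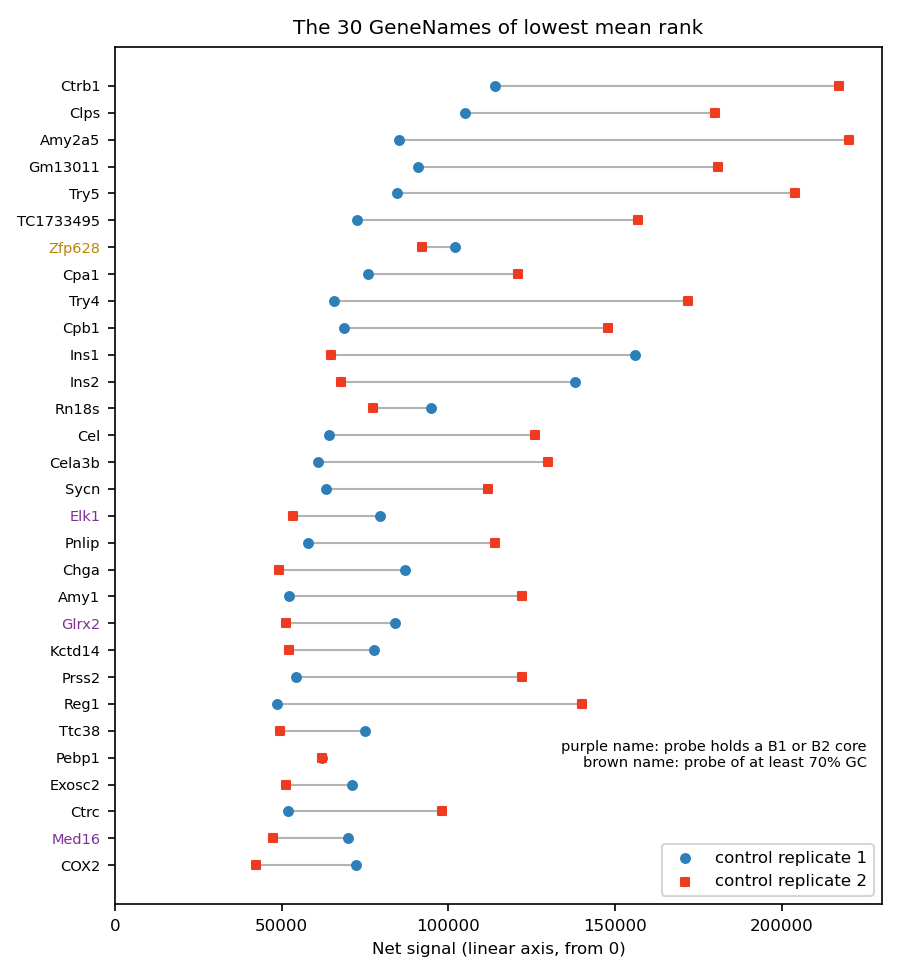
Net signal of the 30 GeneNames of lowest mean rank in control replicate 1 (circles) and control replicate 2 (squares), 1 sample each, on a linear axis from 0. Acinar enzymes such as Ctrb1, Amy2a5 and Try5 lay to the right in replicate 2, while Ins1, Ins2 and Chga lay to the right in replicate 1.

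Insulin was the brightest transcript of replicate 1 and stood lower in replicate 2. Ins1 had a net signal of 155970 in replicate 1 and 64876 in replicate 2 (ranks 1 and 28), which after scaling was 3.06-fold higher in replicate 1. Ins2 had 137972 and 67868.5 (ranks 2 and 27), or 2.58-fold higher in replicate 1. Iapp, which encodes amylin and is made by the same beta cells, had 72266 and 36975 (ranks 18 and 58), or 2.48-fold higher in replicate 1. All of these beta cell hormones lay in the 100 brightest of both samples and differed between the samples in the same direction.

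The hormones of the other endocrine cells ran the other way. Gcg, the glucagon gene, had 45770 in replicate 1 and 86396 in replicate 2 (ranks 46 and 23), 1.48-fold higher in replicate 2 after scaling. Its probe was spotted 10 times, with spots from 40874 to 49266 in replicate 1 and from 82575 to 89768 in replicate 2. These unscaled ranges did not overlap. After scaling, the spots of the samples did not overlap for 45 (21.2%) of 212 probes spotted 10 times. Sst, the somatostatin gene, had 14030 and 27046 (ranks 140 and 81), 1.52-fold higher in replicate 2, also from 10 spots per array. The spots of these probes varied by an SD of 0.037 to 0.15 on the log2 scale within an array, beside differences of 0.57 and 0.60 between the samples. That SD is technical spread only and does not measure how control samples vary.

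Ppy, the pancreatic polypeptide gene, had 4511 in replicate 1 and 22671 in replicate 2 (ranks 589 and 99), which was 3.95-fold higher in replicate 2. Pyy, the peptide YY gene, had 5437 and 14269 and was 2.06-fold higher in replicate 2. Ucn3, a peptide of mature beta cells, had 2949 and 1925 and was 1.95-fold higher in replicate 1. Ghrl (110 and 174) and Npy (138 and 182) were well above background but dim in both samples. The 5 markers of islet identity, Ins1, Ins2, Gcg, Sst and Iapp, were thus detected in both samples, and the order of the hormones differed between them. In whole islets, fewer cells of a type and less of its RNA per cell cannot be told apart.

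**Figure D2:**
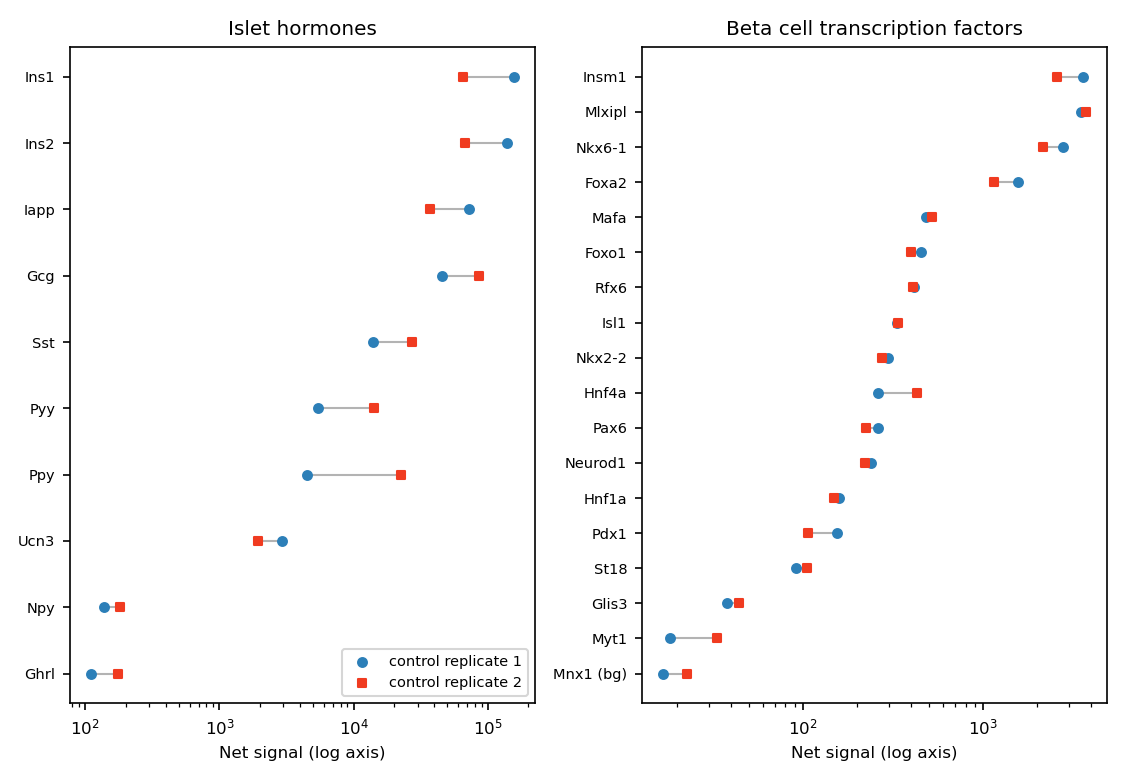
Net signal on log axes of the 10 islet hormones and of 18 beta cell transcription factors in control replicate 1 (circles) and control replicate 2 (squares), where "bg" marks genes well above background in neither sample. Ins1, Ins2, Iapp and Ucn3 were higher in replicate 1, and Gcg, Sst, Pyy and Ppy in replicate 2.

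Genes of the secretory granule were bright in both samples. All 17 members of the granule and prohormone processing list were detected in both, 11 of them among the 1000 brightest in either sample. Chga, the chromogranin A gene, had 86969 and 49275 (ranks 8 and 39), 2.24-fold higher in replicate 1. Cpe, which encodes carboxypeptidase E, had 30068.5 and 29368 (ranks 67 and 71), and Pcsk2, the prohormone convertase that completes glucagon and insulin processing, had 22869 and 22774 (ranks 92 and 98). Of the 17 genes, 14 were lower in replicate 2, with a median difference of -0.30 beside -0.02 over all 14840 GeneNames. Ptprn2 had the highest difference of the list, 1.12 (net signals of 91 and 252), but another of its 3 probes gave 151 and 174, a difference of -0.14.

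Genes that couple glucose to secretion were detected for 16 of the 18 on the list, with a median difference of -0.34. Abcc8, the sulfonylurea receptor, had 10872 and 11080 (ranks 207 and 243), and G6pc2, the islet glucose-6-phosphatase, had 5376 and 7127. Slc2a2, the glucose transporter GLUT2, had 2888 and 1824 and a difference of -1.01. Gipr, the receptor of the incretin GIP, had 505 and 171 and a difference of -1.91. Ffar1 (10 and 17.3) and Cacna1c (5.8 and 11.1) were well above background in neither sample.

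Transcription factors of beta cells were detected for 17 of 18 genes. Insm1 (3588 and 2586), Mlxipl (3489 and 3728) and Nkx6-1 (2776 and 2143) had the highest net signals of the list. Mafa had 481.5 and 524, Nkx2-2 had 296 and 276, Pax6 had 259.75 and 224.25, Neurod1 had 240 and 220.5, and Pdx1, a regulator of pancreas formation and of insulin, had 154 in replicate 1 and ranks of 7140 and 9520. After scaling, 15 of the 17 were lower in replicate 2, none past 2-fold, with a median difference of -0.44. Mnx1 was well above background in neither sample (16.7 and 22.6).

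Factors of alpha and delta cells went the other way. Irx1 had 200 in replicate 1 and 420 in replicate 2, Irx2 had 66.5 and 138, and Hhex, a delta cell factor, had 76 and 177. All 5 detected members of the list were higher in replicate 2, with a median of 0.71 and the highest difference, 0.87, for Hhex. The glucagon, somatostatin and pancreatic polypeptide genes were higher in that sample as well. Pou3f4 was well above background in neither (5.1 and 7.4).

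Acinar genes formed the largest group among the brightest probes. All 32 measured members of the list were detected in both samples, and 23 in replicate 1 and 24 in replicate 2 were among the 100 brightest. They held 9.48% of the summed net signal in replicate 1 and 15.2% in replicate 2. The 10 hormones held 3.01% and 1.82%. Of the acinar genes, 28 were higher in replicate 2, with a median difference of 0.48, and 2 of them were past 2-fold, beside 3.51% of all GeneNames detected in both.

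Trypsins, elastases, lipases and carboxypeptidases were mostly higher in replicate 2. Try5 had 84467 and 203975 (ranks 10 and 3) and Try4 had 65672 and 171980 (ranks 22 and 6), although their probes share a run of 31 letters and their signals may not be separate. Pnlip, the pancreatic lipase, had 57971 and 113972, Cela3b, an elastase, had 60868 and 129974, and Cpa1, carboxypeptidase A1, had 75969 and 120969. Ctrl, a chymotrypsin-like protease, had 27667 and 27476.5 and the lowest difference of the list, -0.36. Gm13011, whose accession now carries the symbol Cela3a, had 90870 and 180977 (ranks 7 and 4).

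The acinar transcription factors were detected in both samples, over a wide range. Rbpjl had 3269 and 3591, Bhlha15 (Mist1) 1098 and 1836, Nr5a2 170 and 471, and Ptf1a, which drives the acinar program, 131 and 195. The median difference of the 5 factors was 0.40. How much of the acinar signal came from acinar tissue carried along with the islets was not tested.

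The Reg genes had the largest median difference between the control samples of the 32 lists. Reg1 had 48568 in replicate 1 and 139967 in replicate 2 (ranks 41 and 9), and Reg2 had 30466 and 118971 (ranks 66 and 15). Reg3b had 718 and 38276 (ranks 2668 and 52), 41.9-fold higher in replicate 2 after scaling, and Reg3a had 309 and 13977, 35.6-fold higher. Reg3g had 29.6 in replicate 1 and 5653 in replicate 2 (ranks 13379 and 563), 150.2-fold higher and the largest difference of any GeneName detected in both (7.23). With normexp background correction that difference was 5.75.

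All 6 detected Reg genes were past 2-fold higher in replicate 2, beside 3.51% of all GeneNames, with a median of 3.53, and Reg4 was well above background in neither sample (4.6 and 8.1). The list of acinar enzymes and secretory proteins had a median of 0.48. Which cells the Reg signal came from was not tested. The Reg genes thus differed far more between the samples than the enzymes did.

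**Figure D3:**
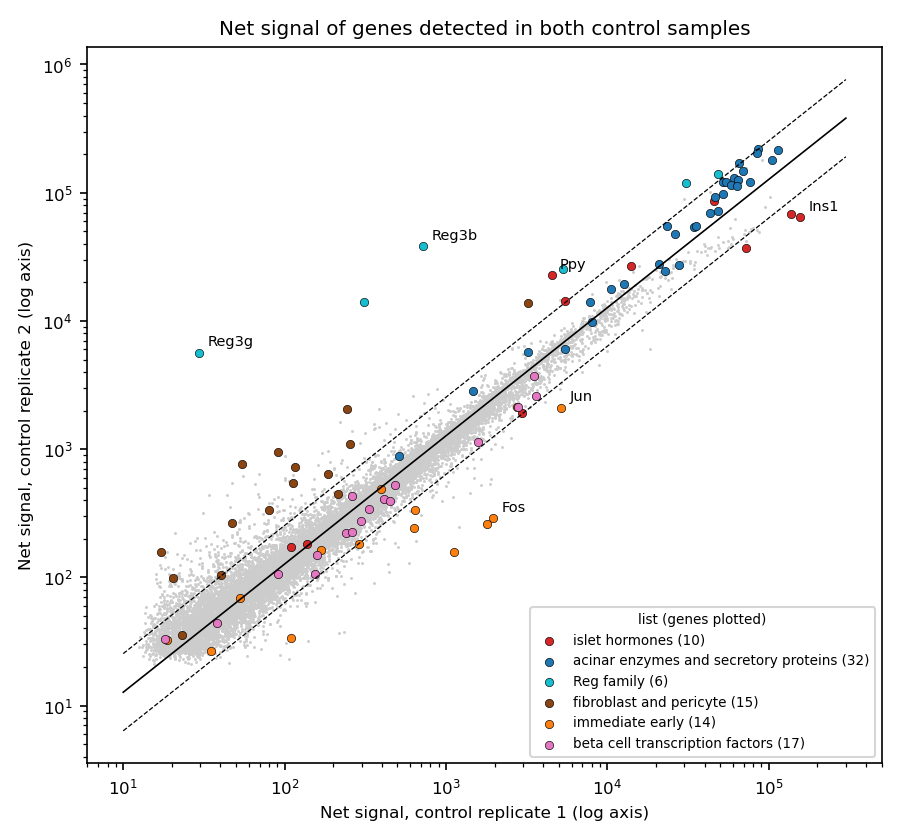
Net signal of the 14840 GeneNames detected in both control samples, on log axes (grey), with 6 gene lists in colour. The solid line marks equal scaled signal and the dashed lines 2-fold, and the Reg genes and most fibroblast genes lay above the upper dashed line while Fos and other immediate early genes lay below the lower one.

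Over all genes the control samples matched closely. Across the 14840 GeneNames detected in both, Pearson's r of log2 net signal was 0.977 and Spearman's rho was 0.968, given as descriptions since genes are not independent replicates. The median absolute difference was 0.23, or 1.17-fold, and 12512 GeneNames (84.3%) lay within 1.5-fold. At least 2-fold higher in replicate 2 were 521 GeneNames (3.51%), and 183 (1.23%) were at least 2-fold higher in replicate 1, so 74.0% of these were higher in replicate 2. That share was 64.1% with the processed signal, 61.6% after quantile normalization and 61.8% with the signal of undetected genes subtracted. It was 80.7% when scaled to the 75th percentile (610 against 146), 86.8% with the looser detection flag (positive and significant signal) and 90.4% with no filter on dim probes. The counts were equal (66 against 66) among GeneNames at or above the median of detected genes in both.

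The imbalance was absent among GeneNames bright in both samples, a filter that also removes those dim in only 1 sample. The 18186 GeneNames detected in neither sample had a median net signal of 0.8 in replicate 1 and 7.7 in replicate 2, a higher floor after background subtraction on the replicate 2 array. In the dimmest of 10 equal groups by brightness the median difference was 0.23 and 6.40% of GeneNames were past 2-fold in either direction. The next 2 groups had medians of 0.11 and 0.05 and 8.83% and 7.48% past 2-fold, and the brightest group had -0.08 and 1.95%. These percentages do not separate the directions. The part of this floor in the differences of single dim genes was not tested.

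The brightest lists were shared to a large part. Of the 10 brightest GeneNames in each sample 5 were shared, of the 30 brightest 18, of the 100 brightest 92 and of the 1000 brightest 925. The 5 GeneNames among the 10 brightest of replicate 1 alone were Ins1, Ins2, Chga, Zfp628 and Rn18s, the 18S ribosomal RNA, and the 5 of replicate 2 alone were Try4, Cpb1, Cela3b, Reg1 and the unnamed transcript TC1733495. Within the arrays, 212 probes spotted 10 times had a pooled SD of 0.20 and 0.16 over their spots, which is technical spread only. For 45 of these probes (21.2%) the spots of the samples did not overlap, 24 higher in replicate 2 and 21 higher in replicate 1.

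Genes of fibroblasts and pericytes, which make the collagen matrix, were dim in replicate 1 and higher in replicate 2. Col1a1 had 54.7 in replicate 1 and 772 in replicate 2, 11.1-fold higher after scaling. Col3a1 had 91 and 952, Col1a2 had 242 and 2066, and Sparc, a matrix-binding protein, had 3222 and 13677. All 15 members detected in both were higher in replicate 2, 13 of them past 2-fold against 3.51% of all GeneNames, with a median of 1.92.

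Lum (15 and 167), Fbn1 (-4.6 and 67.3), Postn (3.2 and 56.9), Col5a1 (-4.6 and 52.2) and Des (2.75 and 24.07) were detected only in replicate 2. Pdgfra was well above background in neither. The list took 0.0326% of the summed signal in replicate 1 and 0.126% in replicate 2. The listed stromal genes therefore held a small part of the summed signal in both samples, unequal between them. This share of probe signal does not measure how much of the RNA was stromal.

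**Figure D4:**
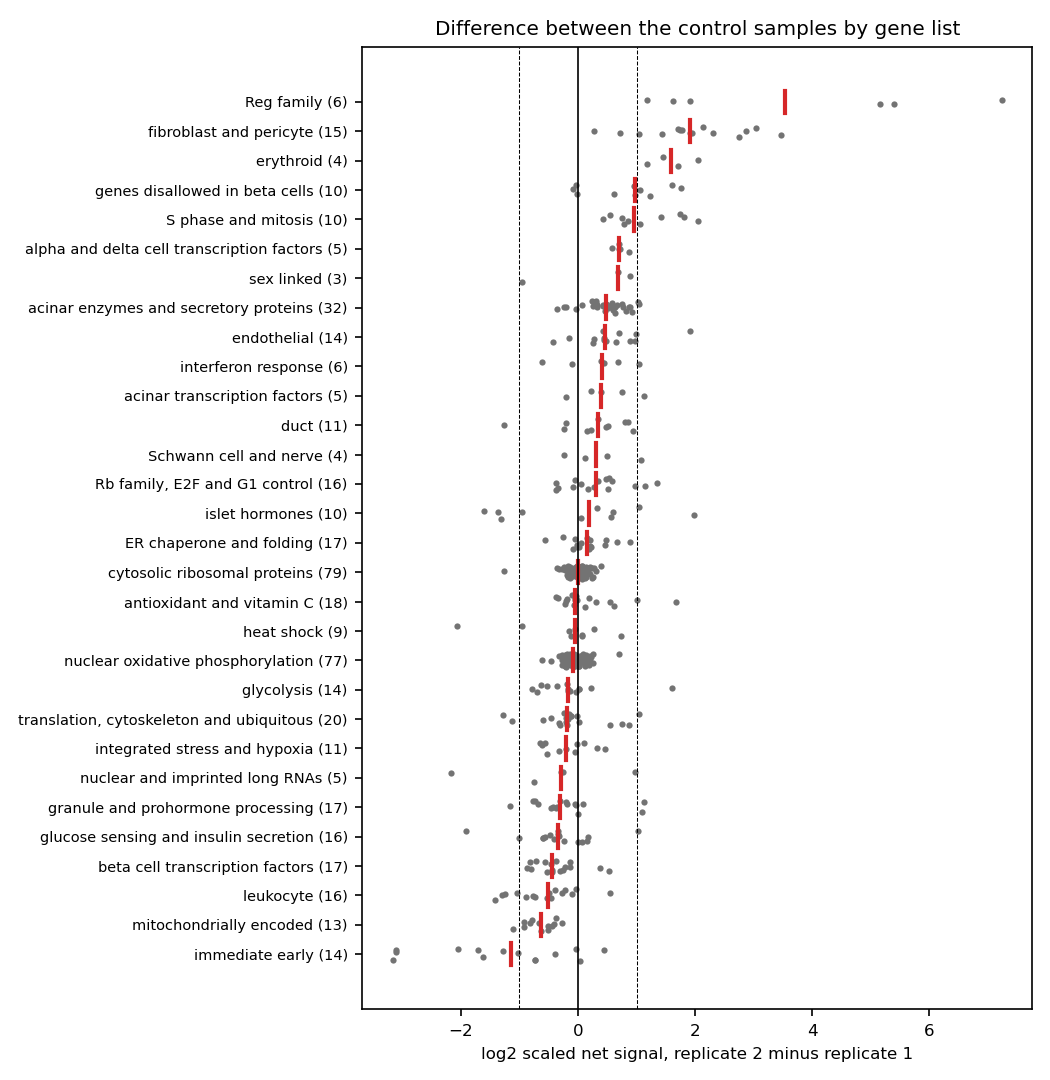
Difference between the control samples (replicate 2 minus replicate 1, log2 of scaled net signal) for each gene detected in both (grey points) of 30 lists with at least 3 such genes, with the list median as a red bar and dashed lines at 2-fold. The Reg, fibroblast and erythroid lists lay furthest to the right, and the immediate early list furthest to the left.

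Blood and vessel genes were present as well. The 4 detected globin genes were all past 2-fold higher in replicate 2, beside 3.51% of all GeneNames, with a median of 1.58, from Hba-a2 (5061 and 14473.5) to Hbb-b2 (263 and 1378). Endothelial genes were detected for 14 of 15 in both samples with a median of 0.46. Plvap, a protein of fenestrated capillaries such as those of islets, had 898 and 1539, Vwf had 80 and 382, and Kdr had 3868.5 and 3637.

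Leukocyte genes leaned to replicate 1. Of the 16 detected in both, 15 were lower in replicate 2, with a median of -0.51 beside -0.02 over all GeneNames. Past 2-fold higher in replicate 1 were 4 of the 16, beside 1.23% of all GeneNames. These were the antigen-presenting genes H2-Eb1 (999 and 516), H2-Ab1 (1164 and 718) and H2-Aa (133 and 63.4) and the complement gene C1qa (322 and 173). Ptprc, the pan-leukocyte marker CD45, was at 0 and 5.1 and Lyz2 was not well above background. Itgam stood out at 4520 and 4097, but the next brightest probe of that GeneName gave 8.1 and 9.3, so its level rests on 1 probe.

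Duct, nerve, fat and liver markers were detected in part. Of 15 duct genes 11 were detected in both, led by the keratins Krt18 (3968 and 6374) and Krt8 (1416 and 2086), while Cftr and Car2 were well above background in neither sample. Of 7 adipocyte genes only Fabp4 was detected (314 and 1348), and Adipoq, Plin1, Lep, Retn, Cfd and Cidec were not. Alb, the albumin gene, was at 1.2 in replicate 1 and at 137 in replicate 2, where alone it was detected. Sox10 of Schwann cells was well above background in neither, and Th, the catecholamine enzyme, had 1120 and 1550.

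Immediate early genes, which cells switch on within minutes of a stimulus such as a growth factor or stress, were higher in replicate 1. Fos had 1959.4 in replicate 1 and 288.65 in replicate 2, 8.63-fold higher in replicate 1, and its 10 spots ran from 1761 to 2200 and from 271 to 306. Egr1 had 1781.5 and 263, Jun had 5146 and 2112, and Socs3, an inhibitor of cytokine signalling, had 1113 and 158. Fosb (638 and 24.2) and Atf3 (70 and 15.5) were detected only in replicate 1. The unscaled groups of Fos spots did not overlap, and after scaling the spots of 45 (21.2%) of 212 probes spotted 10 times did not.

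Of the 14 immediate early genes detected in both, 12 were lower in replicate 2, 8 of them past 2-fold against 1.23% of all GeneNames, with a median of -1.15. The exceptions were Myc (52.7 and 68.95) and Cyr61 (18.7 and 32.3), which were dim. Among heat shock genes Hspa1a (102 and 31) was past 2-fold higher in replicate 1, and Hspa8 (12870 and 14775) and Hspd1 (1239 and 1513) differed by -0.15 and -0.06. Genes of the endoplasmic reticulum, whose chaperones fold secreted proteins, were all detected and had a median of 0.15, with Hspa5 (BiP) at 7949 and 10171 and Pdia6 at 10568 and 11275.

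Genes of mitochondria and ribosomes were among the bright ones. COX2, the mitochondrial cytochrome oxidase subunit gene, had 72370 and 42372 (ranks 17 and 46), COX1 had 56273 and 37779, and CYTB had 24872 and 17877. All 13 mitochondrially encoded genes were lower in replicate 2, with a median of -0.63, and their share of the summed signal was 1.80% and 1.05%. The 77 detected nuclear genes of oxidative phosphorylation had a median of -0.08. The mitochondrially and nuclear encoded parts of the same complexes thus differed between the samples by unequal amounts. A like shift was seen elsewhere: among the 100 brightest, the 17 probes with a B1 or B2 run had differences from -1.06 to -0.29, with a median of -0.57. The deposited positions of the COX2 and COX3 probes are on chr1.

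Ribosomal protein genes had a median difference near 0. Of 83 measured, 79 were detected in both, and the median was 0.00, from -0.10 to 0.13 over the alternative settings. Single genes ran from -1.27 to 0.38, and the 1 past 2-fold was Rps4y2 (302 and 159), 2.41-fold higher in replicate 1. They took 4.79% and 4.83% of the summed signal. Rpl41 had 31464 and 34376.5 (rank 65 in both samples), Rps14 had 28070 and 27972, and Rpl37a had 25668 and 26969. Tpt1 (26670 and 30476.5), Actb (14672 and 17178) and Ppia (16274 and 17475) are often used as reference genes, and after scaling they differed by -0.24 to -0.12. Gapdh, another such gene, had 9728 and 8568.5 and differed by -0.53. The list of translation, cytoskeleton and ubiquitous genes ran from -1.28 to 1.04 with a median of -0.18, 15 of 20 lower in replicate 2.

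Genes of the Rb pathway, through which cells leave G1, were mostly dim in control islets. Rb1 itself had 118.85 and 192 (ranks 8092 and 7172), Rbl1 20.8 and 29.6 and Rbl2 13.4 and 37.7. The cyclin D genes, whose kinases phosphorylate Rb, were detected in both samples: Ccnd2 had 2640 and 3472, Ccnd3 595 and 912 and Ccnd1 564 and 549. Cdk4 had 1053 and 1036, whereas Cdk6 (-5.2 and 0.1), Cdk2 and Cdkn2a were well above background in neither sample. Cdkn1a, the p21 gene, had 65.13 and 209.6 from 10 spots per array, and its spots ran from 50.7 to 74 and from 197 to 226.

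Of the 16 genes of the Rb, E2F and G1 list detected in both, 11 were higher in replicate 2, with a median of 0.31 that ranged from -0.35 to 0.42 over the alternatives. Genes of S phase and mitosis were all higher in replicate 2 where detected. Mki67, a mark of cycling cells, had 96 and 406, Birc5 had 55.7 and 292, and Pcna had 393 and 674. All 10 detected in both were higher in replicate 2, 5 past 2-fold beside 3.51% of all GeneNames, with a median of 0.96 that stayed between 0.64 and 1.53 over the alternatives. Top2a, Ccna2, Ccnb1 and Cdk1 were detected in replicate 2 only.

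Genes whose expression beta cells normally keep low were partly visible. Ldha, lactate dehydrogenase, had 383 and 1480 and a difference of 1.60, and Oat had 29.5 and 127, while Slc16a1, the lactate transporter, was well above background in neither (11.2 and 8.3). Hk1, a hexokinase of low Km, had 7701 and 9609, and the next brightest probe of that GeneName gave 71.7 and 176. The list median was 0.97, and -0.02 among the GeneNames at or above the median of detected genes in both samples, where fewer of the list remained. Acinar, stromal and blood genes were higher in the same sample, and their part in these values was not tested.

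Antioxidant genes had a median difference near 0. Of the 18 detected, Sod1 had 3391 and 3704.5, Sod2 1436 and 1605, Prdx6 2789 and 2811, Gpx1 1360 and 1667 and Cat, the catalase gene, 303 and 335. The list median was -0.05, and it changed sign over the alternatives (-0.11 to 0.06). Sod3, the extracellular superoxide dismutase, had 26.2 and 106 and the highest difference, 1.67, and Gpx3, a secreted glutathione peroxidase, had 952.5 and 2423. The vitamin C transporter genes Slc23a1 and Slc23a2 and Gulo, the last enzyme of vitamin C synthesis, were well above background in neither sample.

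The largest differences of all came only in part from these groups. Among the 10 furthest toward replicate 2 were Reg3g, Reg3b and Reg3a, the matrix genes Col1a1, Col3a1 and Fbln2 (55.5 and 613), Sdc4, a heparan sulfate proteoglycan (34.1 and 438), and Lrg1, an acute-phase glycoprotein (21 and 220). Among the 10 furthest toward replicate 1 were Socs3, Fos and Egr1, C8b of the complement system (234 and 37.8), the glycosyltransferase gene Galnt6 (217 and 36.8) and Rec8, a meiotic cohesin (586.5 and 130). Both sets also held GeneNames of little known function, such as Gm3727 (47 and 545) and LOC100503910 (1210 and 246). Malat1, a nuclear long RNA, had 1870 and 531 and a difference of -2.16, from 1 probe at chr19:5795713-5795772 (minus strand). A far brighter probe nearby on that strand, under another GeneName (chr19:5802130-5802189), had 39874 and 39578 (ranks 55 and 49). It differed by only -0.36, and whether both probes read the same transcript was not tested.

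Part of the top of the order was shared by probes with like sequences. Of the 100 GeneNames of lowest mean rank, 17 had a probe that held the B1 run GGGCTACACAGA (6) or the B2 run TGAAGACAGCTA (11) in the orientation shown above, and no probe held both. These runs were chosen after the values were seen, as the 12-letter run held by more of the 100 probes than any other run, and the run held by more of the remaining probes than any other, with ties settled by the alphabet. Over all probes, 20 (0.0359%) held either run, 19 of them were well above background in both samples, and their median net signals were 41070 and 36074. Since 17 of the 20 are among the 100 from which the runs were picked, these values follow largely from that choice. On the opposite strand, 2 probes held the B1 run and 2 the B2 run, and none was among the 100 brightest. A further 8 of the 100 had a probe of at least 70% GC, such as Zfp628 (101971 and 92073), whose other probe gave 53.1 and 80.

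Other probes of the same GeneNames were often far dimmer. Elk1, a transcription factor gene, had 79469 and 53368 (ranks 12 and 33), while its other probe gave 2.4 and 14.8. Glrx2, which encodes a mitochondrial glutaredoxin, had 84072 and 51277, and the next brightest of its 3 probes gave 103 and 109. Of the 17 GeneNames with a repeat run 14 had another probe, and for 12 of these the brightest was at least 10-fold above the next in both samples. Probes of genes known for islets or acinar cells varied as well: in replicate 1 those of Cpe were close (30068.5 against 29771), those of Clps lay 4.09-fold apart, those of Pcsk2 8.11-fold and those of Ctrc 9.70-fold. Pebp1, on none of the lists, had probes 22.2-fold apart.

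**Figure D5:**
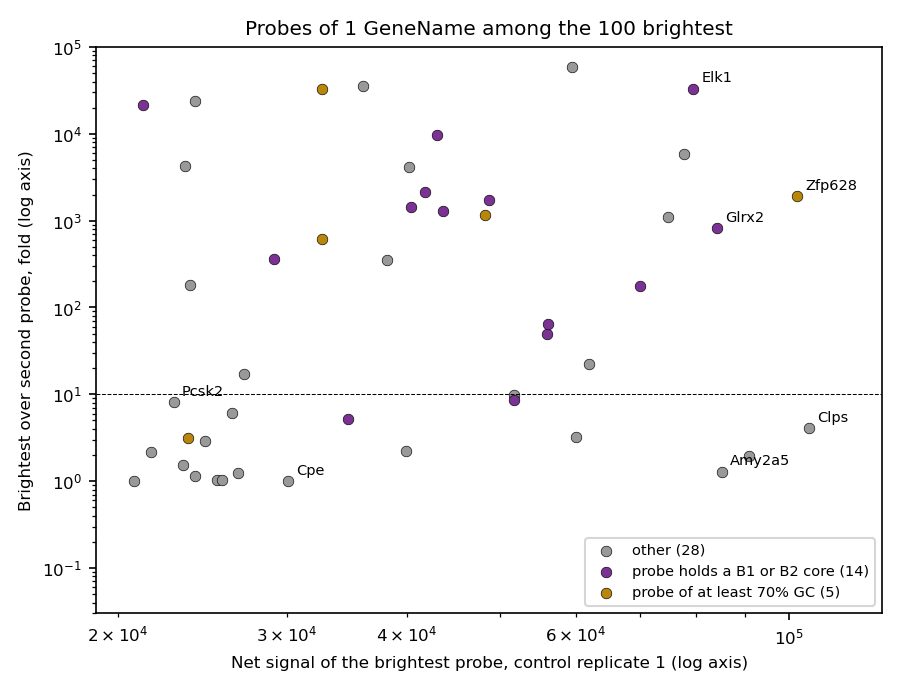
Brightest probe over the next brightest probe of the same GeneName in control replicate 1, against net signal of the brightest, on log axes, for the 47 of the 100 brightest GeneNames with several probes. Of the 14 probes with a B1 or B2 run (purple) 12 lay above 10-fold (dashed line), while the labelled enzyme and granule genes lay below it, from near 1-fold for Cpe to 8.11-fold for Pcsk2.

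Among the 100 brightest, 53 GeneNames had 1 probe and 47 had several, and for 27 of the 47 the brightest was at least 10-fold above the next in both samples. Over all 3197 GeneNames whose next brightest probe was also detected, the median ratio was 2.25-fold in replicate 1; that number leaves out next probes below background, which the counts among the 100 brightest include. Where such a GeneName was past 2-fold between the samples, the next probe differed in the same direction in 84.1% (90) and was itself past 2-fold in 41.1% (44). The levels of Elk1, Glrx2 and the other GeneNames with repeat runs are therefore given as levels of those probes.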

How the data were processed

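The submitters' processing notes name Agilent Feature Extraction 10.7.3.1 for the two-colour arrays. The deposited intensity values are spot means and local background medians of the green channel, rounded to 3 significant digits, with flags for spots well above background, per the file headers. Probe positions are those of mm9 per the file headers, and positions in exons or UTRs were not analysed here. Control spots and non-uniform spots (4 and 3) were left out and spots of a probe averaged. No column of another sample was used. Names were updated through RefSeq's GRCm38.p6 table by accession (19802 of 34841 GeneNames, 469 of them to several symbols), and 25 GeneNames are date-like in the deposited files. The control samples and 32 gene lists were chosen with earlier results of these data known. Named genes were the 30 of lowest mean rank, the 10 largest differences each way, all hormones and endocrine factors, and the 4 brightest, the extreme and the undetected members of each list. A few genes under this rule are not reported here. Further members of the lists and probes with repeat runs were chosen after their values were seen. Alternatives were Agilent's processed signal, normexp (limma 3.58.1, R 4.3.3, offset 50), other probe rules, filters and scalings, and either sample alone. Steps were tested on simulated data. Python 3.11.15, pandas 2.3.3 and numpy 2.4.6 were used.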

Additional observations from a re-analysis of the deposited data

How the results depend on the processing

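No paired analysis was possible because only 1 group, the control samples, was used. Spearman's rho fell to 0.906 with no filter on dim probes. GeneNames at least 2-fold higher in replicate 2 numbered 65 at 4-fold, 66 among the brighter GeneNames, 135 with normexp, 2387 with the looser detection flag and 11740 with no filter. Those higher in replicate 1 numbered 20, 66, 64, 362 and 1240 in the same order, and 290 with the signal of undetected genes subtracted, an alternative chosen after seeing the data. Of the 50 brightest GeneNames 84% were shared. The difference of Ptprn2 changed sign, to -0.17 with the median of pixels and -0.22 with the looser detection flag. Another probe of that GeneName had a difference of -0.14 in the main setting, and whether these alternatives took that probe was not tested. The Reg list's median was 1.91 among the brighter GeneNames, since Reg3g fell below that filter. With either sample alone, acinar genes held 9.48% or 15.2% of the signal and hormones 1.82% or 3.01%, 23 or 24 acinar genes and 4 or 6 hormones were among the 100 brightest, and 15535 or 15960 GeneNames were detected. Of 179 checks of the main results, 166 counted as unchanged under a wide tolerance. A count could move up to 1.5-fold, and a median difference or share of signal by less than the SD between the 2 samples. The Reg list's median of 1.91 counted as unchanged under this rule, so sizes were kept only roughly. Without repeat-like and GC-rich probes, also chosen after seeing the data, 12 ribosomal protein genes were among the 100 of lowest mean rank in place of 5. Signal over background limits the dim genes most, since the offset between the arrays is near their size.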

Other observations

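The GeneNames detected in 1 sample alone were mostly dim. In replicate 1 alone they included Fosb (638 and 24.2), the brightest of them, Galr1 (97 and 20.1), a galanin receptor gene, and Adora2b (72 and 16.6), an adenosine receptor gene. In replicate 2 alone they included Tac1, the precursor of substance P (10.1 and 210), Dpysl3, a gene of growing neurites (12.6 and 207), and Mfap4, a matrix protein gene (10.1 and 164).

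Genes of the sex chromosomes were detected from both. Xist, which coats the silenced X chromosome, had 90 in replicate 1 and 58.9 in replicate 2. The Y-linked genes Eif2s3y (94 and 220) and Ddx3y (46.9 and 96) were well above background in both samples, and Uty and Kdm5d in neither. The number of mice behind each sample is not given in the sources used here.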
